A study of Homo sapiens with 3 samples.

Results

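The clathrin adaptor complexes AP-1 and AP-2 were examined at the level of the mRNAs that encode their subunits. RNA was precipitated from ACHN cells, an established human renal carcinoma line, that stably overexpressed MEX3A, a KH-domain protein that binds RNA, fused to Flag. The anti-Flag precipitate was set against an IgG precipitate of the same overexpressing line, with 1 library each, and a labelled input sample was not analysed here. Formaldehyde-fixed complexes were captured on protein G beads, and mRNA was selected on oligo(dT), per the labels' protocols. The members were 10 genes taken by name from the 57820 genes of each table, namely AP1G1, AP1G2, AP1B1, AP1M1, AP1M2, AP1S1 and AP1S2 of AP-1 and AP2A1, AP2B1 and AP2M1 of AP-2. They were chosen with the Flag to IgG ratios of these libraries already known, AP1M2 among the most enriched, so their ratios are a description and no test was made of them. The labels give no untransfected or tag-only line, and both precipitates carry the overexpressed protein.

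Each adaptor complex is built from a pair of large subunits, a medium mu subunit and a small sigma subunit. AP-1 sorts cargo into clathrin-coated vesicles at the trans-Golgi network and endosomes, and AP-2 does so at the plasma membrane during endocytosis. The mu subunits read tyrosine-based sorting signals in the tails of membrane proteins. In AP-1 the mu position can be filled by mu1A, encoded by AP1M1 and present in most cells, or by mu1B, encoded by AP1M2 and known from polarized epithelial cells, where it serves sorting to the basolateral membrane.

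The libraries, called Flag and IgG below, came to 5498124 and 3412864 counts. Levels are given as CPM, the counts per 1000000 of a library's total. A count of 0 was set to a floor of 3 counts, which equals 0.546 CPM for Flag and 0.879 CPM for IgG. Ratios are Flag CPM over IgG CPM with exact 95% intervals, which cover counting error only, since PCR copies of a molecule can be counted more than once. A ratio given as at least a value is the value at the 3-count floor, and its interval reaches lower. Genes entered if the libraries together held at least 20 of their counts. They were called enriched where the whole interval exceeded 2, and depleted where all of it was under 0.5. Of 10811 entering genes 28.7% were enriched and 1.32% depleted, and the median ratio was 1.93. With 1 library per group no ratio has a replicate check. Of 12 renal markers 9 entered, PAX8 among them at 2532 counts with Flag and 1049 with IgG, while CDH6 and CA9 had 0 counts in both libraries and CDH16 had 7 with Flag and 0 with IgG. Of 15 markers of other cell types 10, PTPRC, ALB and HBB among them, had 0 counts in both, but the fibroblast marker COL1A1 had 875 counts with Flag and 637 with IgG. The summed level of the markers of other cell types was 170 CPM with Flag and 193 CPM with IgG.

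AP1M2 and AP1M1, which encode alternative forms of the same subunit, lay at opposite ends of the members by count ratio. The interval of AP1M1 overlapped those of AP2A1 and AP2M1, the next lowest. Of the 9 members that entered, 3 were enriched (AP1M2, AP1S1 and AP1G1) and 0 depleted, against 28.7% and 1.32% of all entering genes. This share is near that of all genes. The other 6 entering members had ratios below the median gene. AP1S2, with 17 counts in all, did not enter.

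**Figure D1:**
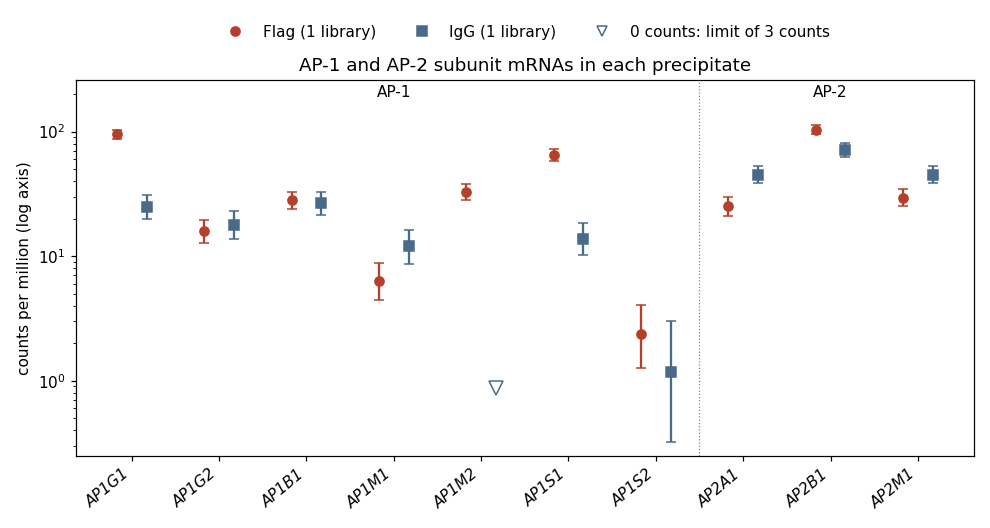
Level of each of the 10 subunit mRNAs in CPM on a log axis, with circles for the Flag library, squares for the IgG library and bars for exact 95% counting intervals. AP1M2 stood at 32.6 CPM with Flag and at 0 with IgG, where the open triangle marks the limit of 0.879 CPM.

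AP1M2 (ENSG00000129354) had 179 counts, or 32.6 CPM (28.0 to 37.7), with Flag and 0 counts with IgG. The ratio was therefore at least 37.0, with a lower bound of 29.8 for the interval. At the Flag library's share of counts, 111 counts would have stood in the IgG library. AP1M1 (ENSG00000072958) had 35 counts, or 6.37 CPM (4.43 to 8.85), with Flag and 41 counts, or 12.0 CPM (8.62 to 16.3), with IgG. Its ratio was 0.530 (0.328 to 0.853), at percentile 5.17 of the entering genes, while AP1M2 stood at percentile 99.6. At this floor the ratio of AP1M2 was 69.9 times that of AP1M1, with a lower bound of 50.1 for counting error. These values do not depend on how the libraries are scaled.

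The make-up of the mu1 position differed accordingly between the libraries. AP1M2 supplied 83.6% of the 214 mu1 counts in the Flag library (exact binomial 95% interval 78.0 to 88.3) and 0 of 41 in the IgG library, where the same interval reached up to 8.60%. Per length, in TPM, the deposited abundance scaled by effective length, AP1M2 was listed at 87.1 and AP1M1 at 7.66 in the Flag library, so that AP1M2 was 11.4-fold higher than AP1M1 there. In the IgG library AP1M2 was listed at 0 TPM and AP1M1 at 11.6. From TPM the Flag to IgG ratio of AP1M1 was 0.659, above those of AP2A1 (0.387) and AP1S2 (0.550). Summed over both genes the mu1 position had a ratio of 3.24 (2.31 to 4.64).

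The AP1M2 reads of the Flag library were assigned to short transcripts. The deposited mean transcript length of AP1M2, weighted by estimated abundance, was 556 bases in the Flag library. The IgG table, in which the gene has no reads, lists 853 bases. Of 118 entering protein-coding genes with 0 IgG counts, 7 had a lower ratio of these lengths than AP1M2, at 0.652, and the median was 1.15. A short length raises TPM. With the length of the IgG table, a setting chosen after seeing the data, AP1M2 came to 48.7 TPM in the Flag library, still 6.36-fold above AP1M1. Which transcripts were assigned is not given at the gene level, so whether they encode the whole mu1B protein was not tested.

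Few genes shared the pattern of AP1M2, which was chosen with its ratio known, so its rank here is a description. Among the 118 entering protein-coding genes with 0 IgG counts it had the highest Flag count. Of 3578 protein-coding genes with between 89.5 and 358 Flag counts, 3 had 0 IgG counts, AP1M2 included, and the median IgG count was 48. The genes nearest to AP1M2 in Flag count among those with 0 IgG counts, over these 2 libraries, were TBX20 with 123 Flag counts, GABARAPL2 with 99, UTP23 with 88, ZNF726 with 86 and SGK3 with 85. TBX20 encodes a T-box transcription factor and GABARAPL2 an autophagy protein of the ATG8 family. CDKN2D, the nearest annotated gene on one side of AP1M2 and on the same strand, had 8 counts with Flag and 9 with IgG. Whether the counting used strand is not given in the sources used here, so antisense reads may be counted with a gene.

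Epithelial genes, the setting in which mu1B is known, were unevenly present. Of 22 genes of an epithelial programme, 7 had 0 counts in both libraries, among them ESRP1 and GRHL2, an epithelial splicing regulator and an epithelial transcription factor. Only 6 entered, of which 3 were enriched (50%, against 28.7% of all entering genes) and 0 depleted, with a median ratio of 3.09. With TMM scaling 1 was enriched, against 12% of all entering genes. CDS1, a phospholipid synthesis gene, had 49 counts with Flag and 0 with IgG, a ratio of at least 10.1 (lower bound 7.94). GRHL1, a transcription factor gene, had 31 counts with Flag and 1 with IgG, a ratio of 19.2 (3.21 to 784). KRT19, which encodes a simple epithelial keratin, had 729 counts with Flag and 525 with IgG, with a ratio of 0.862 (0.769 to 0.966). ELF3, an epithelial ETS factor gene with fractional counts, was not called at a ratio of 2.27 (1.64 to 3.18). EPCAM, the other enriched gene, had 214 counts with Flag and 34 with IgG, a ratio of 3.91 (2.71 to 5.79). CDH1, with 19 counts with Flag and 8 with IgG, was not called at 1.47 (0.616 to 3.89). CDS1 and GRHL1 reached the count minimum on their Flag counts alone, so the enriched share of 50% rests in part on how genes entered. Of the entering genes with the most counts, KRT19, EPCAM and ELF3, only EPCAM was enriched. The summed level of the list was 228 CPM with Flag and 185 CPM with IgG. The part of epithelial gene expression in the AP1M2 value was not tested.

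**Figure D2:**
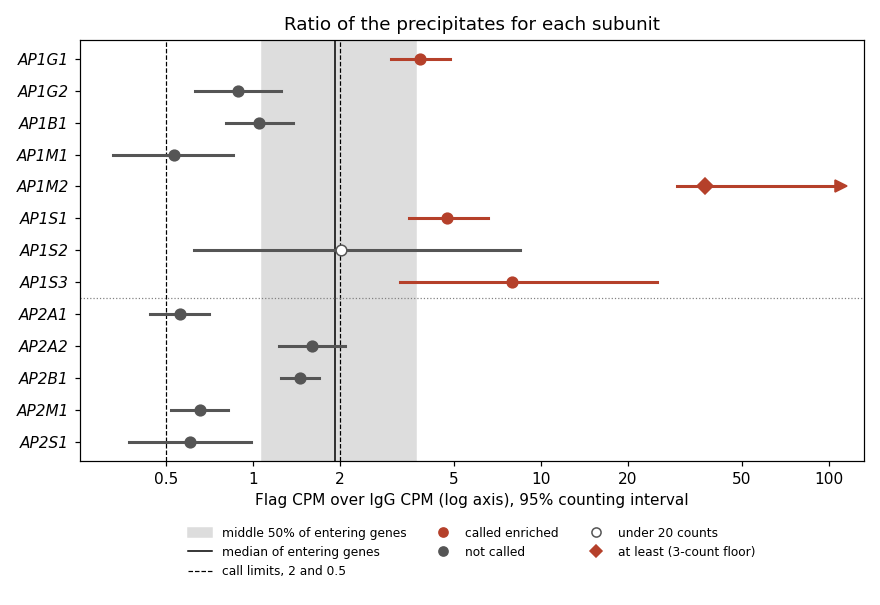
Flag CPM over IgG CPM on a log axis for all 13 AP-1 and AP-2 subunit genes, with exact 95% counting intervals, the median (1.93) and middle 50% of entering genes, and the limits of the calls at 2 and 0.5. AP1M2, AP1S1, AP1S3 and AP1G1 lay wholly above 2, and no interval lay wholly below 0.5.

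The large subunits of AP-1 were unlike each other. AP1G1 encodes gamma1, a large subunit with an ear that recruits accessory proteins. It had 522 counts (94.9 CPM) with Flag and 85 counts (24.9 CPM) with IgG. Its ratio was 3.81 (3.03 to 4.85), and it was enriched. AP1G2, which encodes the related gamma2, had 87 counts (15.8 CPM) with Flag and 61 counts (17.9 CPM) with IgG. Its ratio of 0.885 (0.631 to 1.25) held 1 within the interval. The ratio of AP1G1 was 4.31 times that of AP1G2 (2.82 to 6.54).

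AP1G2 therefore made up 14.3% of gamma counts in the Flag library (11.6 to 17.3) and 41.8% in the IgG library (33.7 to 50.2), intervals that do not overlap. Per length the order of the pair turned over, while in counts AP1G1 was the higher in both libraries. AP1G2 had a mean transcript length of 846 bases with Flag and 718 with IgG, against 2076 and 3357 for AP1G1. AP1G1 and AP1G2 were listed at 49.7 and 23.8 TPM in the Flag library, against 7.78 and 33.5 TPM in the IgG library. AP1B1, which encodes beta1, a large subunit that binds clathrin, had 154 counts (28.0 CPM) with Flag and 91 counts (26.7 CPM) with IgG. Its ratio was 1.05 (0.805 to 1.38). AP1G2 and AP1B1 had fractional expected counts (87.26 in the Flag library for AP1G2, 91.28 in the IgG library for AP1B1), so some of their reads were shared out between genes.

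The small sigma1 subunits complete AP-1 and help to bind dileucine sorting signals. AP1S1, which encodes sigma1A, had 357 counts (64.9 CPM) with Flag and 47 counts (13.8 CPM) with IgG. Its ratio was 4.71 (3.47 to 6.54), and it was enriched. AP1S2, which encodes sigma1B, had 13 counts with Flag and 4 with IgG, too few to place its ratio (2.02, 0.623 to 8.49). AP1S3, which encodes sigma1C and is no member, had 64 counts with Flag and 5 with IgG and was enriched at 7.95 (3.23 to 25.3). AP1S1 supplied 82.3% of sigma1 counts in the Flag library (78.3 to 85.7) and 83.9% in the IgG library (71.7 to 92.4), so a difference in the make-up of this position was not detectable at this depth. Summed, the sigma1 position had a ratio of 4.81 (3.64 to 6.47).

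**Figure D3:**
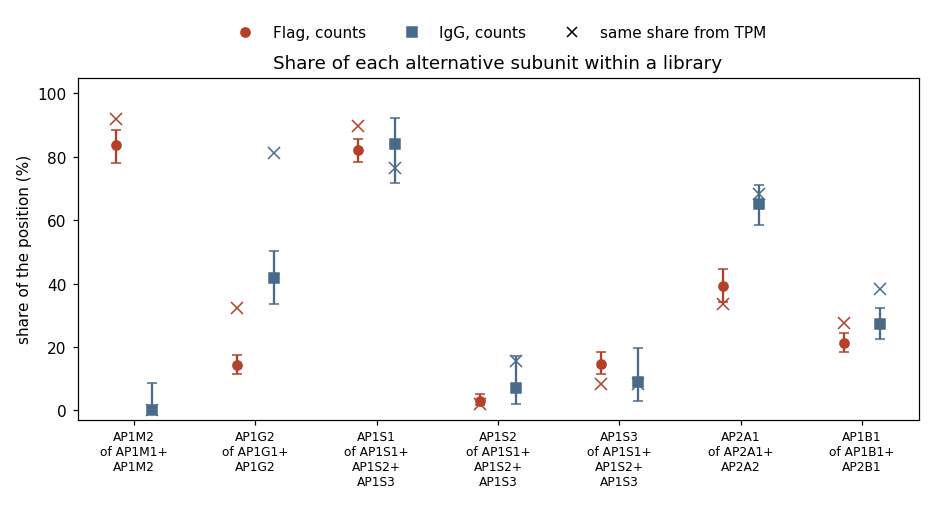
Share of each alternative subunit among the genes named under it, within each library, in percent, from counts (circles for Flag, squares for IgG, bars for exact 95% binomial intervals) and from TPM (crosses). The intervals of AP1M2, AP1G2 and AP2A1 did not overlap between the libraries, while those of AP1S1, AP1S2, AP1S3 and AP1B1 did. How often other pairs of genes differ in this way was not tested.

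The AP-2 members had ratios between 0.556 and 1.46. AP2A1, which encodes alphaA, a large subunit that binds membrane phosphoinositides and endocytic partners, had 138 counts (25.1 CPM) with Flag and 154 counts (45.1 CPM) with IgG. Its ratio was 0.556 (0.439 to 0.705). AP2M1, which encodes mu2, the cargo-reading subunit of endocytosis, had 162 counts (29.5 CPM) with Flag and 154 counts (45.1 CPM) with IgG, a ratio of 0.653 (0.520 to 0.820). AP2B1, which encodes beta2, had 570 counts (104 CPM) with Flag and 243 counts (71.2 CPM) with IgG, a ratio of 1.46 (1.25 to 1.70). None of these AP-2 members was called.

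With AP1M1, the genes AP2A1 and AP2M1 were the 3 members whose intervals lay wholly below 1, as did those of 8.99% of entering genes. AP2A1 stood at percentile 5.70 of the entering genes. The 4 members with intervals wholly above 1 were AP1M2, AP1S1, AP1G1 and AP2B1, against 58.1% of entering genes. Of the AP-2 subunits that are no members, AP2A2, which encodes alphaC, had 214 counts with Flag and 83 with IgG, a ratio of 1.60 (1.24 to 2.09). AP2S1, which encodes sigma2, had 36 counts with Flag and 37 with IgG, a ratio of 0.604 (0.371 to 0.983).

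The alpha position, like the mu1 and gamma positions, was made up differently in the libraries, beyond counting error only. How often other pairs of genes differ in this way was not tested. Single-gene intervals lay wholly above 1 for 58.1% and wholly below 1 for 8.99% of entering genes. AP2A1 supplied 39.2% of alpha counts in the Flag library (34.1 to 44.5) and 65.0% in the IgG library (58.5 to 71.0). The ratio of AP2A2 was 2.88 times that of AP2A1 (2.02 to 4.11). Among the beta subunits, AP1B1 made up 21.3% of the summed AP1B1 and AP2B1 counts in the Flag library (18.3 to 24.4) and 27.2% in the IgG library (22.5 to 32.4). These intervals overlapped, while the ratio of AP2B1 was 1.39 times that of AP1B1, with an interval (1.01 to 1.89) just above 1.

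Over all 8 AP-1 genes, AP1S3 included, 1411 counts with Flag and 334 with IgG gave a ratio of 2.62 (2.33 to 2.96), or 2.29 (2.03 to 2.59) without AP1M2. Over the 5 AP-2 genes, 1120 counts with Flag and 671 with IgG gave 1.04 (0.941 to 1.14). Of the entering AP-1 genes, AP1B1, AP1G2 and AP1M1 had ratios below that of the AP-1 sum. The genes of a complex were therefore not alike, with AP-1 ratios between 0.530 and at least 37.0.

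Scaling decided some calls. Scaling by trimmed mean of M-values (TMM), which lowered every log2 ratio by 0.78, kept AP1M2 (at least 21.6) and AP1S1 (2.75, 2.02 to 3.81) enriched. AP1G1, at 2.22 (1.76 to 2.83), lost its call, and AP1S3 was not called. With this scaling AP1M1 (0.309, 0.191 to 0.497), AP2A1 (0.324, 0.256 to 0.411) and AP2M1 (0.381, 0.303 to 0.478) were called depleted. With TMM 2 of the 9 members were enriched and 3 depleted, against 12% and 6.12% of all entering genes. Median-of-ratios scaling gave the same calls for the members, against 11.7% enriched and 6.24% depleted of all. At a threshold of 4-fold AP1M2 was the only member called, against 8.55% of entering genes.

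The order of the levels per length differed between the libraries. In the Flag library AP1M2 (87.1 TPM, counting interval 74.8 to 101) and AP1S1 (79.9 TPM, 71.8 to 88.6) came first and did not differ beyond counting error, followed by AP1G1 at 49.7 TPM. At the AP1M2 length of the IgG table, 48.7 TPM would place AP1M2 below AP1S1 and next to AP1G1. AP1G2, AP2M1 and AP2B1 lay between 20.2 and 23.8 TPM, AP2A1, AP1M1 and AP1B1 between 7.65 and 7.87 TPM, and AP1S2 at 1.88 TPM. In the IgG library AP1G2 (33.5 TPM, at a mean length of 718 bases) and AP2M1 (32.0 TPM) came first. They were followed by AP2A1 (20.3), AP1S1 (16.9), AP2B1 (14.1), AP1M1 (11.6) and AP1B1 (8.77). AP1G1 (7.78) and AP1S2 (3.42) came after these, with AP1M2 at 0.

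Lengths altered the ratios of some members. AP1G1 had a mean transcript length of 2076 bases with Flag and 3357 with IgG, and its ratio from TPM was 6.39. AP2A1 had 3345 bases with Flag and 2385 with IgG, and its TPM ratio of 0.387 was under 0.5. AP2A1 was the 1 member below that limit with a pseudocount of 1 or 0.1, against 4.96% and 6.59% of entering genes. AP1S2 had 1431 bases with Flag and 530 with IgG, so that its ratio was 2.02 from counts and 0.550 from TPM, on opposite sides of 1. For AP1S1 and AP2B1 the lengths and the ratios were nearly the same on both scales.

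**Figure D4:**
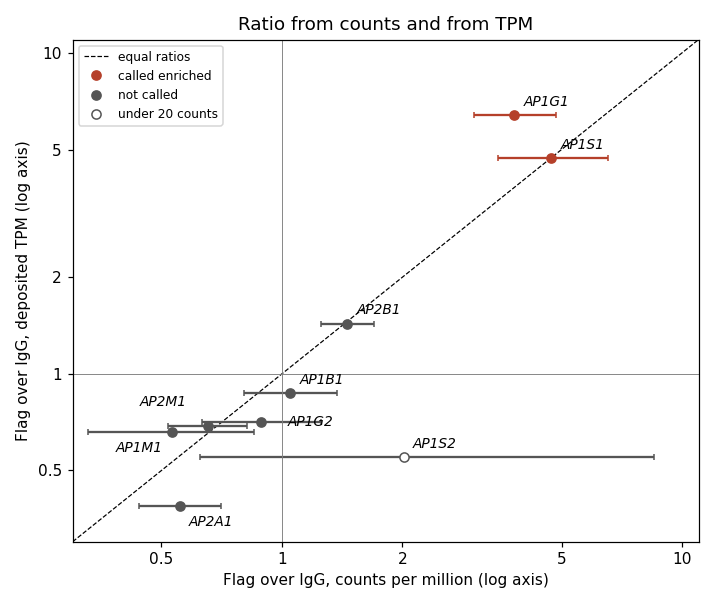
Flag over IgG from CPM (x, with 95% counting intervals) and from the deposited TPM (y) on log axes for the 9 members with reads in both libraries. AP1S1 and AP2B1 lay on the line of equal ratios, AP1G1 above it (6.39 from TPM, 3.81 from counts) and AP2A1 and AP1S2 below it.

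Clathrin itself was not enriched with MEX3A-Flag. The heavy chain gene CLTC had 1139 counts with Flag and 562 with IgG, a ratio of 1.26 (1.14 to 1.39), and the light chain genes CLTA (0.914, 0.695 to 1.21) and CLTB (0.923, 0.597 to 1.44) held 1 within their intervals. CLTCL1, a second heavy chain gene, had a ratio of 0.809 (0.502 to 1.31), or 0.468 from TPM. All 4 entered and 0 were called, against 28.7% enriched and 1.32% depleted of all entering genes. Their median was 0.918, below the median gene.

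The other adaptor complexes AP-3, AP-4 and AP-5 act at endosomes, lysosomes and the Golgi. They had 1 enriched (11.1%, against 28.7% of all) and 0 depleted of 9 entering genes, with a median ratio of 2.20. The enriched gene was AP3S1, which encodes sigma3A, with 47 counts with Flag and 4 with IgG (7.29, 2.67 to 27.9), and with TMM scaling 0 of these genes were called. AP3M1, which encodes mu3A, had a ratio of 2.66 (1.75 to 4.17), AP5Z1 1.34 (1.06 to 1.69) and AP3D1, which encodes the delta subunit, 0.769 (0.680 to 0.870).

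Partners of AP-1 at the Golgi and endosome had 5 enriched and 0 depleted of 17, with a median of 1.99. The enriched share of 29.4% was near the 28.7% of all entering genes. With TMM scaling 3 were enriched, against 12% of all entering genes. CCDC91, which encodes a partner of the GGA adaptors, had 211 counts with Flag and 14 with IgG, a ratio of 9.36 (5.45 to 17.4). AP1AR, which encodes gadkin, an AP-1-binding regulator of endosome movement, had 128 counts with Flag and 9 with IgG, a ratio of 8.83 (4.51 to 19.7). GGA3, which encodes a monomeric clathrin adaptor (0.687, 0.506 to 0.934), and RABGEF1, a Rab5 activator gene with fractional counts (0.477, 0.253 to 0.889, and 0.973 from TPM), were not called.

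Partners of AP-2 at the plasma membrane had 4 enriched (18.2%, against 28.7% of all) and 0 depleted of 22 entering genes, with a median of 1.93. NUMB, an endocytic adaptor gene that acts in Notch signalling, had 513 counts with Flag and 24 with IgG, a ratio of 13.3 (8.82 to 20.9). TNK2, which encodes a clathrin-binding kinase and had fractional counts, had a ratio of 4.99 (3.82 to 6.60). The NUMB paralog NUMBL (0.785, 0.489 to 1.27) and the epsin gene EPN1 (0.783, 0.635 to 0.968) were not called.

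Genes of adaptor kinases, vesicle fission and uncoating had 7 enriched (36.8%, against 28.7% of all entering genes) and 0 depleted of 19. Their median was 2.63. With TMM scaling 0 were called, against 12% enriched and 6.12% depleted of all entering genes. With TPM at a pseudocount of 0.1, 7 of the 19 were enriched (36.8%, against 44.2% of all entering genes). AAK1, the kinase that phosphorylates mu2, had 351 counts, part of them fractional, with Flag and 49 with IgG, a ratio of 4.45 (3.29 to 6.13). SNX18, a membrane-bending sorting nexin gene, had 42 counts with Flag and 3 with IgG, a ratio of 8.69 (2.78 to 43.8). HSPA8, the chaperone of uncoating (0.989, 0.909 to 1.08), and BIN1, an amphiphysin gene (0.882, 0.710 to 1.10), held 1 within their intervals.

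The list of cargo receptors also held genes that encode no receptor, such as VAMP4, VAMP7 and the protease gene FURIN. Of its 11 entering genes 5 were enriched (45.5%, against 28.7% of all entering genes) and 0 depleted. The median was 3.57, the ratio of VAMP7. VAMP4, with 23 counts with Flag and 0 with IgG, was among the enriched. With TMM scaling 3 were enriched, against 12% of all entering genes. EGFR, the epidermal growth factor receptor gene, with fractional counts, had a ratio of 4.14 (3.81 to 4.51), while the transferrin receptor gene TFRC (0.874, 0.691 to 1.11) and LRP1 (1.09, 0.925 to 1.29) were not called. From TPM the ratios were 2.73 for EGFR, 1.75 for TFRC and 0.599 for LRP1, the last pair on the other side of 1. With TPM at a pseudocount of 0.1, 4 of the 11 were enriched, against 44.2% of all entering genes.

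**Figure D5:**
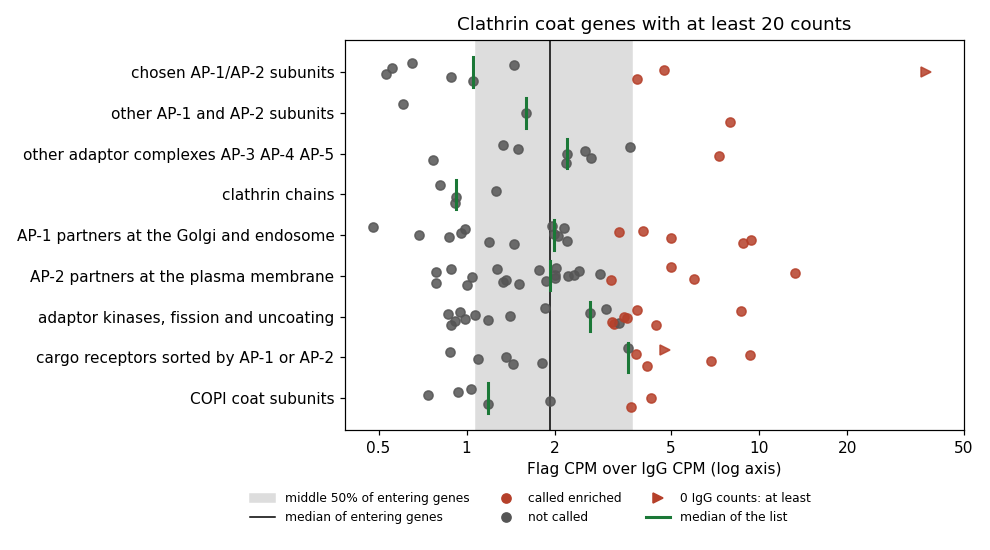
Flag CPM over IgG CPM on a log axis for each gene with at least 20 counts in the chosen subunits and in 8 further lists, with called genes in red, list medians as green bars and the middle 50% of entering genes shaded. The chosen subunits spread from 0.530 to at least 37.0 around a median of 1.05, and no clathrin chain gene was called.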

How the data were processed

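RNA immunoprecipitation libraries of ACHN cells with Flag-tagged MEX3A, 1 from anti-Flag and 1 from IgG, were analysed. Per the file headers, the authors deposited expected counts, which are estimated reads per gene in the layout of RSEM and not normalized. The deposited TPM values were scaled by the authors by effective length, per the file headers. The submitters' processing notes name RSEM and STAR, and as builds GRCh37 and hg19, with no roles. Read filters and use of strand are not given in the sources.

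Expected counts were rounded and divided by library totals. Ratios with Clopper-Pearson intervals (scipy 1.17.1) were computed for all genes with at least 20 counts, and a 0 was set to 3 counts. The calling was tested on simulated data. No p-value was computed. Members and lists were chosen with earlier results of these data known. The text names all members, the other AP-1, AP-2 and clathrin genes, and up to 2 genes at each end of every other list. It also names 5 genes nearest to AP1M2, and neighbours. Further genes, such as PAX8, CDH6, CDH16, CA9, PTPRC, ALB, HBB, ESRP1, GRHL2, EPCAM and CDH1, were named after their values were seen. The same holds for GFAP, VAMP4, VAMP7 and FURIN. One gene of the cargo receptor list is counted but not reported here by name. Gene names are those of the files. The RefSeq gene table served for neighbours, for matching list symbols and for choosing among rows of the same name. Of the list symbols PECAM1 was not matched. The 14 alternatives tried included TMM (edgeR 4.0.16) and median-of-ratios scaling (DESeq2 1.42.0).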

Additional observations from a re-analysis of the deposited data

How the results depend on the processing

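With 1 library per group no library could be left out. No paired analysis was possible because each group has 1 library and the ratios come from no test. The 3 enriched members became 1 (AP1M2) at a 4-fold threshold; TMM and median of ratios each left 2, without AP1G1. The 0 depleted members became 3 under TMM and likewise 3 by median of ratios, and 1 (AP2A1) with TPM at a pseudocount of 1 or 0.1. The share of AP1M2 in mu1 in the Flag library was 91.0% and 91.8% from TPM at these pseudocounts, against 83.6% from counts, and 86.4% from TPM with the AP1M2 length of the IgG table, a setting chosen after seeing the data. Of the 85 entering clathrin pathway genes outside the members 23 were enriched (27.1%, against 28.7% of all entering genes), 9 under TMM (10.6%, against 12%) and 8 by median of ratios (9.41%, against 11.7%), 37 at 1.5-fold and 4 at 4-fold; 0 were depleted, and 1 with TPM at a pseudocount of 0.1.

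Over all genes 3100 were enriched, 1293 under TMM, 1269 by median of ratios, 4780 with TPM at a pseudocount of 0.1 and 924 at 4-fold. The 143 depleted genes became 662 under TMM, 675 by median of ratios, 268 when mitochondrial RNAs and the 10 largest genes were left out of the totals, 257 with scaling to the other adaptor subunits, 218 with no count minimum, 536 and 712 with TPM at a pseudocount of 1 and 0.1, 298 at 1.5-fold and 24 at 4-fold. The scalings move all genes alike, and the share of enriched among called genes moves with them. Depth limits AP1S2, at 17 counts, and the 0 IgG counts of AP1M2.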

Other observations

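The COPI coat moves vesicles within the Golgi and back to the endoplasmic reticulum and has subunits related to those of the clathrin adaptors. Of its 7 entering genes 2 were enriched (28.6%, against 28.7% of all entering genes) and 0 depleted, with a median ratio of 1.18. COPB2, which encodes the beta-prime subunit, had 411 counts with Flag and 60 with IgG, a ratio of 4.25 (3.24 to 5.67). ARCN1, which encodes the delta subunit, had 607 counts with Flag and 103 with IgG, a ratio of 3.66 (2.96 to 4.55). COPE (0.740, 0.493 to 1.11) and COPG1 (0.935, 0.700 to 1.25) held 1 within their intervals. With TMM scaling 0 COPI genes were called. As in AP-1, the genes of this complex had unlike ratios.

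Of 12 renal markers 9 entered and 3 of these were enriched (33.3%, against 28.7% of all entering genes), with a median of 1.39. The kidney transcription factor genes PAX2 (5.20, 3.84 to 7.20) and LHX1 (5.51, 3.28 to 9.90) had the highest lower bounds. The keratin gene KRT18, with fractional counts (0.673, 0.577 to 0.786), and HAVCR1 (0.681, 0.552 to 0.840) were not called with library totals. With TMM scaling 1 renal marker was enriched and 2, KRT18 and HAVCR1, were depleted, against 12% and 6.12% of all entering genes. Among markers of other cell types, 3 entered and 0 were called, against 28.7% enriched and 1.32% depleted of all entering genes. COL1A1, a fibroblast marker, had a ratio of 0.853 (0.769 to 0.946), and CD68, with fractional counts, a ratio of 1.43 (0.725 to 2.99). GFAP, with 17 counts with Flag and 7 with IgG, had a ratio of 1.51 (0.594 to 4.30). From TPM the ratios were 0.720 for COL1A1, 2.94 for CD68 and 7.19 for GFAP. With TPM at a pseudocount of 0.1, 2 of the 3 were enriched, against 44.2% of all entering genes.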
